A study of Mus musculus with 10 samples.

Results

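The 45 genes described here encode enzymes of amino acid breakdown in the liver. They were chosen by gene symbol from textbook pathways: histidine, tyrosine, tryptophan, glycine, serine and folate, sulfur amino acids, the aspartate and alanine transaminases, lysine, branched-chain amino acids and gamma-aminobutyric acid (GABA). The choice was made with earlier results of these data known, so the list is not independent of them. Every probe set of the array whose annotation names one of these genes, and no other gene, was taken. That gave 41 of the 45 genes, all of which were tested among 12855 genes in the whole series; Sds, Sdsl, Acmsd and Amt were not analysed here. The lowest value of a tested enzyme in any array was 6.69 on the log2 scale, so no gene passed the filter on dim values, which was set at 4.33, through 1 group alone.

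The study measured RNA from whole liver of male C57BL/6 NHsd mice on Affymetrix arrays of the mouse genome, 5 days after an injection into the tail vein. Of 10 arrays, 2 came from livers after PBS alone, 4 after lipid nanoparticles carrying a control siRNA and 4 after nanoparticles carrying siRNA against Rab5all, with the siRNA dose at 1.5 mg/kg. Rab5 is a small GTPase of early endosomes, encoded by Rab5a, Rab5b and Rab5c. The sample titles call the control a scrambled RNA and the design text names Luciferase, and it is referred to as control siRNA. No genotype change, age or pooling is given in the sources used here. Nothing says which numbered arrays came from separate mice, and the p-values therefore reflect the scatter of these 10 samples, which may be technical. The siRNA lowers a messenger and is no deletion, and a whole-liver sample holds every cell type of the organ.

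The liver is where most amino acids beyond the needs of protein synthesis are degraded. A transaminase or a dedicated first enzyme usually commits the amino acid, its nitrogen goes to urea, and the carbon skeleton enters gluconeogenesis, ketone body synthesis or the citric acid cycle. Several of these enzymes, Tat and Tdo2 among them, are classic targets of glucocorticoids and glucagon, and many, though not all, are made mainly by hepatocytes. Branched-chain amino acids are an exception: their first transamination happens mainly outside the liver, and the liver takes up the chain at the dehydrogenase step.

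The targeted messengers followed the labels. Rab5a read 8.67 ± 0.228 (SD, n = 4) in control siRNA and 6.86 ± 0.402 (n = 4) in Rab5 siRNA livers, or 28.6% of the control signal, and Rab5c kept 25.1% (adjusted p = 1.16e-05 and 1.64e-07, limma with Benjamini-Hochberg adjustment over all genes). Rab5b lay near the filter in all groups, at 4.34 and 4.10 (adjusted p = 0.194). Arrays of 1 group correlated at 0.975 to 0.992 and no arrays were identical. The hepatocyte markers identified the tissue as labelled: Alb averaged 14.06 in control siRNA livers, and of 10 markers tested 1, Ahsg, rose by 0.69 and none fell. The mean deviation of the hepatocyte markers from the control mean was -0.05 to 0.05 in the control siRNA arrays and 0.00 to 0.07 in the Rab5 siRNA arrays.

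The question of the main comparison is what silencing Rab5 changes beyond the carrier and an irrelevant siRNA. Enzymes of amino acid breakdown were lower in the Rab5 siRNA livers, with at least 1 fall in each of the 9 pathway groups. Of 41 enzymes, 33 fell, none rose and 8 did not pass the test, where 9.51% of all genes tested fell and 13.8% rose. The 10 largest falls, in Csad, Hal, Got1, Hpd, Tat, Cth, Haao, Kynu, Afmid and Tdo2, were of at least 1 log2 unit each, which was so for 1.33% of all genes. The median difference was -0.63 over the 41 enzymes, or 64.5% of the control signal, and 0.00 over all 12855 genes. In 35 of the 41 the lowest control siRNA array lay above the highest Rab5 siRNA array, a pattern found in 11.2% of all genes, and in none did the reverse hold, which it did in 13.8%. Whether hepatocytes were fewer or held less of each RNA cannot be told apart in whole tissue, and the deposited normalization equalizes arrays, so a general fall of RNA would not be seen.

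**Figure D1:**
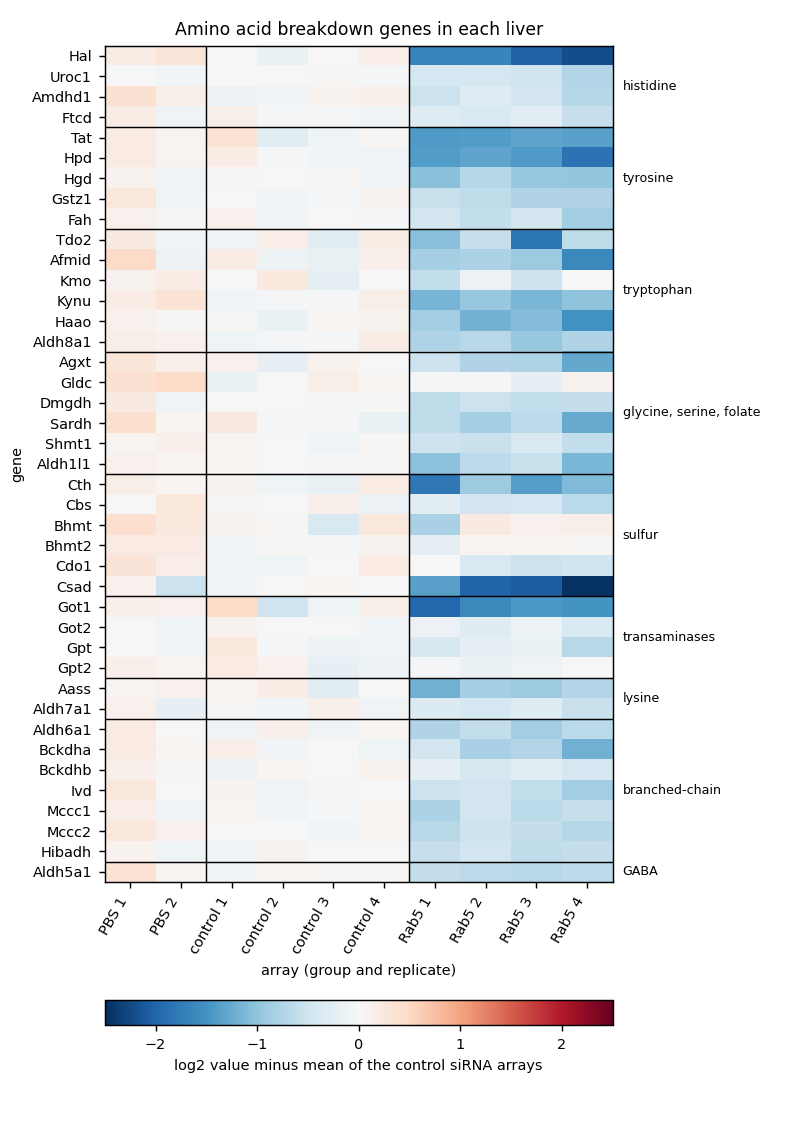
Log2 signal of each of the 41 tested enzymes minus its mean over the 4 control siRNA arrays, as colour, with 1 row per enzyme ordered by pathway and 1 column per array. The 4 Rab5 siRNA columns are lower over most rows, with a median over the enzymes of -0.58 to -0.72, against -0.03 to 0.04 in the control siRNA columns and 0.05 to 0.18 in the PBS columns.

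The fall was seen in each Rab5 siRNA array. In replicate order, 41, 39, 39 and 36 of the 41 enzymes lay below their control siRNA mean, and the median deviations were -0.62, -0.58, -0.63 and -0.72. The same median over all genes stayed between -0.01 and 0.01 in these arrays. These enzymes are bright: the median enzyme stood at the 95.2th percentile of genes by control level, and the dimmest, Aldh5a1, at the 70.1th.

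Markers of other cell types were also called in the same arrays, where 13.8% of all genes tested rose and 9.51% fell. Of 12 Kupffer cell and macrophage markers, 7 rose and none fell (median 0.56), and their mean deviation was 0.13 to 0.70 in Rab5 siRNA arrays against -0.20 to 0.13 in control siRNA arrays. The defining Kupffer cell gene Clec4f was measured at 9.52 in Rab5 siRNA and 9.23 in control siRNA livers (adjusted p = 0.0706). Of 10 stellate cell and fibroblast markers 3 rose, of 4 cholangiocyte markers 1 rose, of 4 neutrophil and monocyte markers 1 rose, of 7 endothelial markers 4 fell, and of 6 lymphocyte and 3 pancreas and kidney markers 1 each fell. A set with 1 call among 3 to 6 markers is too small to set beside the shares of all genes. All 6 cycling-cell markers tested rose, with a median of 2.37. The gap between the 3' and 5' probe sets of Actb, a measure of RNA integrity, was 2.59 to 2.75 in Rab5 siRNA arrays and 2.84 to 3.23 in control siRNA arrays, while the Gapdh gaps of 2.29 to 2.67 and 2.19 to 2.86 overlapped. The part of these shifts in the enzymes' falls was not tested.

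**Figure D2:**
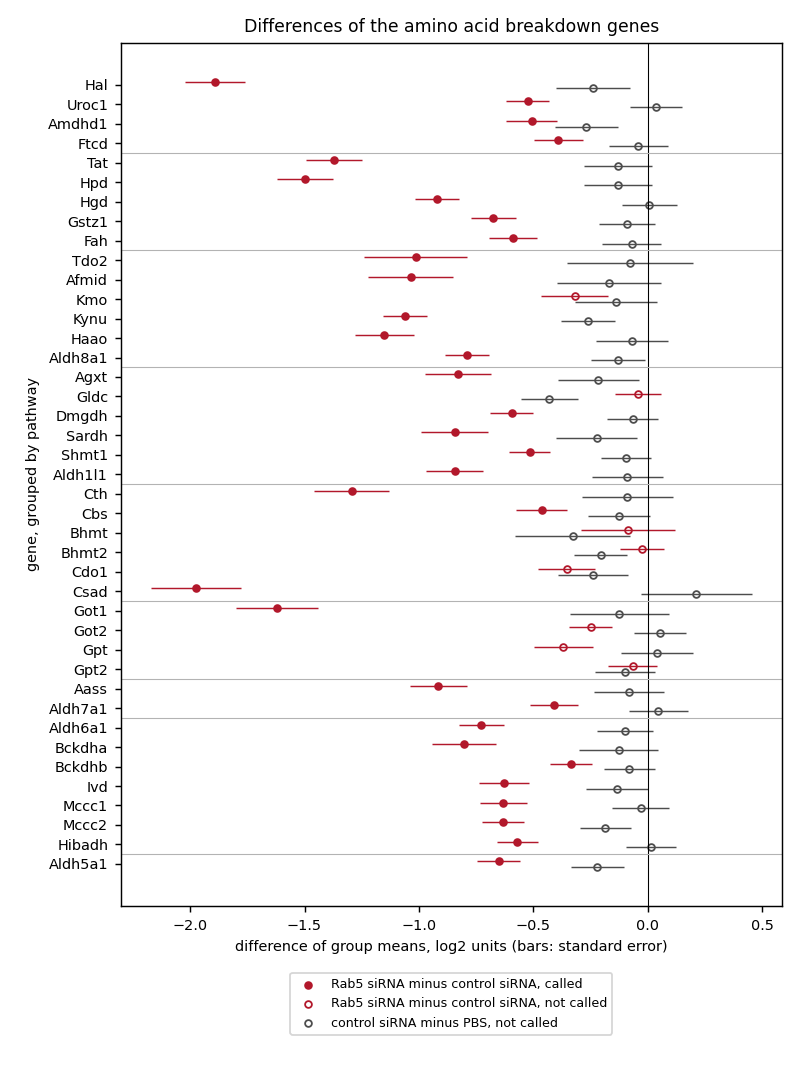
Difference in log2 signal for each of the 41 enzymes, grouped by pathway, as a point with a bar of 1 moderated standard error: Rab5 siRNA minus control siRNA in red and control siRNA minus PBS in grey. All 41 red points are below 0, from -1.97 for Csad to -0.02 for Bhmt2, while the grey points lie between -0.43 and 0.21.

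Histidine breakdown runs through 4 enzymes in sequence, and all 4 fell. Hal, histidase, removes ammonia from histidine and commits it to breakdown. Hal read 9.90 and 10.02 in the PBS livers, 9.73, 9.55, 9.73 and 9.88 in the control siRNA livers and 8.05, 8.07, 7.70 and 7.50 in the Rab5 siRNA livers, in log2 units and in replicate order here and below. All 4 Rab5 siRNA arrays lay well below the other 6. The mean went from 9.72 ± 0.136 (SD, n = 4) to 7.83 ± 0.277 (SD, n = 4), so that 26.9% of the control signal was left (difference -1.89, SE 0.132, adjusted p = 1.04e-06). The later steps changed less. Uroc1, urocanate hydratase, fell by 0.53 (SE 0.0936), Amdhd1, imidazolonepropionase, by 0.51 (SE 0.111) and Ftcd, which passes the formimino group to folate, by 0.39 (SE 0.106, adjusted p = 0.0169). Their Rab5 siRNA arrays were all below all control siRNA arrays, but the Ftcd call was lost without control siRNA replicate 1 (adjusted p = 0.0532).

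Hal and Amdhd1 are neighbours on chromosome 10, and the distance between their log2 values within an array changed by -1.38 from control siRNA to Rab5 siRNA livers, a description of a pair singled out after its values were seen. The promoter of Hal, the enzyme with the strongest fall of the pathway, is shown because, among Csad, Hal, Got1, Hpd and Tat, it alone has a window that holds the letters of a TATA box. It is at chr10:93488518-93488817 (GRCm38.p6, plus strand, RefSeq), from 250 bases before to 50 after the annotated start. Capitals mark TTTATA, the reverse complement of TATAAA, beginning at position -28 from the start.
Hal: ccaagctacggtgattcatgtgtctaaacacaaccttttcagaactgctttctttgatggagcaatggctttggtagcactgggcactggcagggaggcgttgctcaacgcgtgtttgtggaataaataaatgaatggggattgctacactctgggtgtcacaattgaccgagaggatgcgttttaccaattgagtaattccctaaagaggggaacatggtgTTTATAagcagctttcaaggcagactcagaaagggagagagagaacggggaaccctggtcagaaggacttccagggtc

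Tyrosine breakdown, 5 enzymes that lead from the amino acid to fumarate and acetoacetate, fell in full, with a median of -0.92. Tat, tyrosine aminotransferase, opens the pathway. The log2 values of Tat were 11.24 and 11.10 with PBS, 11.39, 10.76, 10.93 and 11.06 with control siRNA and 9.61, 9.64, 9.71 and 9.69 with Rab5 siRNA. The Rab5 siRNA arrays were close to one another and below all others. Tat went from 11.04 ± 0.266 (SD, n = 4) to 9.66 ± 0.0429 (SD, n = 4), a difference of -1.37 (SE 0.123, adjusted p = 6.38e-06), and kept 38.7% of its signal. Hpd, the dioxygenase of the next step and among the brightest genes of the set, was also lower. With PBS Hpd stood at 12.87 and 12.74, with control siRNA at 12.86, 12.63, 12.60 and 12.61 and with Rab5 siRNA at 11.28, 11.35, 11.25 and 10.82. Again no Rab5 siRNA array reached the others. Hpd went from 12.67 ± 0.125 (SD, n = 4) to 11.18 ± 0.238 (SD, n = 4) and differed by -1.50 (SE 0.122, adjusted p = 3.12e-06).

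The fall became smaller along the order of the tyrosine steps after Hpd. Hgd, homogentisate dioxygenase, fell by 0.92 (SE 0.0971), Gstz1, maleylacetoacetate isomerase, by 0.67 (SE 0.1000), and Fah, the last enzyme, whose loss causes tyrosinemia, by 0.59 (SE 0.106, adjusted p = 0.00126). Fah kept 66.4% of its control signal and Hpd 35.4%. No test was made of the order along the pathway.

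Of the 6 tryptophan enzymes tested 5 fell, and 4 of these by more than 1 log2 unit. Tdo2, tryptophan dioxygenase, is the liver's entry to the kynurenine pathway. In the PBS arrays Tdo2 was measured at 11.94 and 11.66, in the control siRNA arrays at 11.66, 11.89, 11.43 and 11.90 and in the Rab5 siRNA arrays at 10.68, 11.14, 9.92 and 11.09. The Rab5 siRNA arrays were the most scattered of the enzymes described so far, yet all lay below the others. Tdo2 went from 11.72 ± 0.223 (SD, n = 4) to 10.71 ± 0.565 (SD, n = 4), a difference of -1.01 (SE 0.224, adjusted p = 0.00518), and its other probe sets above the filter differed by -1.32 and -1.53.

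Afmid, the formamidase that follows, and Kynu, kynureninase, gave similar changes. Afmid read 9.01 and 8.40 in the PBS livers, 8.73, 8.40, 8.35 and 8.66 in the control siRNA livers and 7.70, 7.73, 7.64 and 6.92 in the Rab5 siRNA livers. Afmid was lowest in replicate 4 of the Rab5 siRNA group. It differed by -1.04 (SE 0.185, adjusted p = 0.00120). The log2 values of Kynu were 9.22 and 9.37 with PBS, 8.97, 8.99, 9.0 and 9.18 with control siRNA and 7.88, 8.09, 7.89 and 8.04 with Rab5 siRNA. Kynu was tight in both siRNA groups and differed by -1.06 (SE 0.0958, adjusted p = 6.61e-06). Its other probe set above the filter, a dim one at 4.61 in control siRNA livers, differed by -0.12 (adjusted p = 0.664 over all probe sets), and the mean of the Kynu probe sets differed by -0.59, still a fall.

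Haao, 3-hydroxyanthranilate dioxygenase, makes the precursor of quinolinate and of NAD. With PBS Haao stood at 11.24 and 11.18, with control siRNA at 11.17, 10.97, 11.18 and 11.22 and with Rab5 siRNA at 10.29, 9.96, 10.06 and 9.63. Its Rab5 siRNA arrays were all below all others, and it differed by -1.15 (SE 0.129, adjusted p = 3.34e-05). Aldh8a1, a dehydrogenase of the branch that oxidizes the ring fragment completely, fell by 0.79 (SE 0.0971). Kmo, the monooxygenase between Afmid and Kynu, was the exception: it differed by -0.32 (95% interval -0.63 to 0.00, adjusted p = 0.140) with overlapping arrays, and passed the test without Rab5 siRNA replicate 4 (adjusted p = 0.0470).

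**Figure D3:**
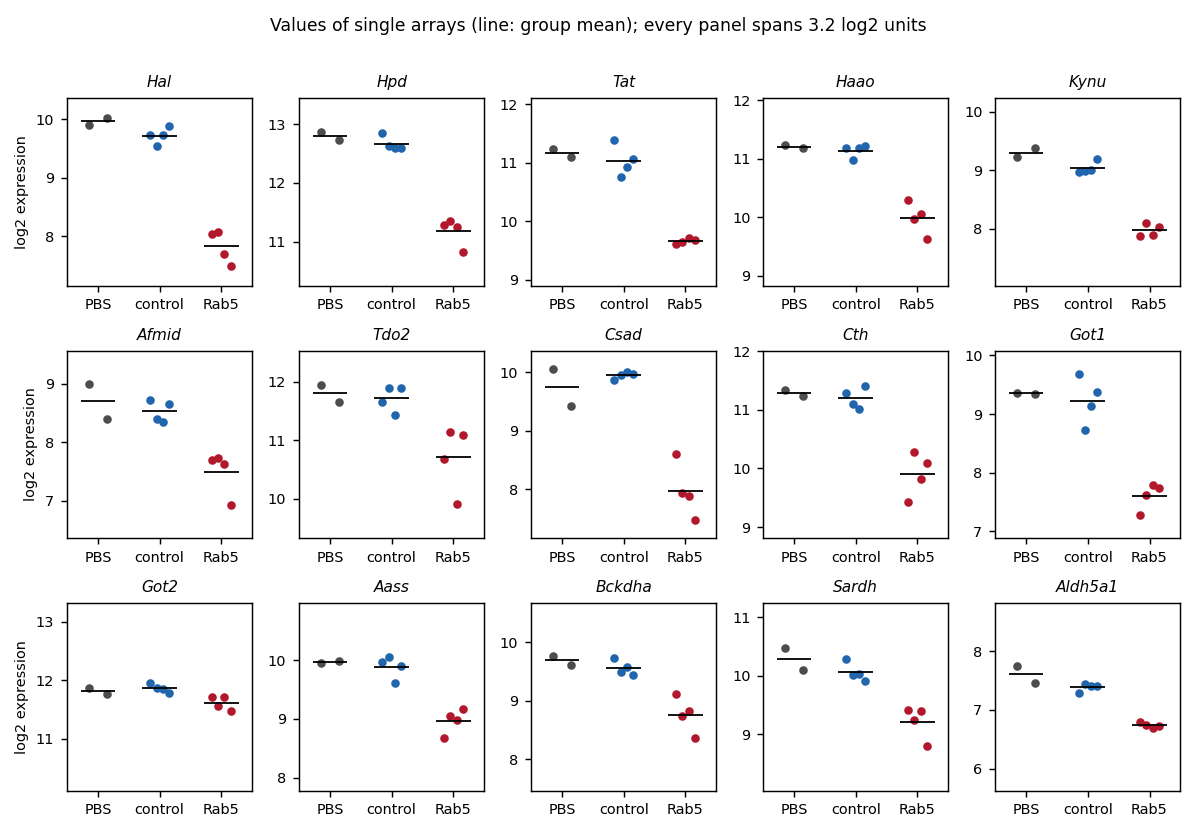
Log2 signal of 15 enzymes in each array, as 1 point per array and 1 panel per enzyme, by group. Every panel spans the same number of log2 units, so that the falls can be compared by eye; Csad and Hal show the widest drop, and the Got2 arrays of the siRNA groups are separate but close.

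Among the enzymes of glycine, serine, methyl-group and folate metabolism 5 of 6 fell, with a median of -0.71. Aldh1l1, the folate dehydrogenase that oxidizes formyl groups to carbon dioxide, and Sardh, sarcosine dehydrogenase, had the largest differences. In the PBS arrays Aldh1l1 was measured at 11.68 and 11.65, in the control siRNA arrays at 11.62, 11.56, 11.52 and 11.61 and in the Rab5 siRNA arrays at 10.55, 10.93, 11.02 and 10.44. It went from 11.58 ± 0.0464 (SD, n = 4) to 10.73 ± 0.282 (SD, n = 4) and differed by -0.84 (SE 0.125, adjusted p = 2.99e-04). Sardh read 10.47 and 10.11 in the PBS livers, 10.29, 10.02, 10.04 and 9.91 in the control siRNA livers and 9.42, 9.24, 9.41 and 8.81 in the Rab5 siRNA livers. Sardh also differed by -0.84 (SE 0.146), and in both enzymes no Rab5 siRNA array reached a control siRNA or PBS array. Agxt, which detoxifies glyoxylate to glycine, fell by 0.83 (SE 0.145), Dmgdh, dimethylglycine dehydrogenase, by 0.60 (SE 0.0926) and Shmt1, the cytosolic serine hydroxymethyltransferase, by 0.52 (SE 0.0902). Gldc, the decarboxylase of the glycine cleavage system, differed by -0.04 (95% interval -0.26 to 0.18, adjusted p = 0.804).

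In sulfur amino acid metabolism 3 of 6 enzymes fell, and the falls were unequal. Csad, the decarboxylase that makes hypotaurine for taurine synthesis, had the largest difference of all 41 enzymes. The log2 values of Csad were 10.06 and 9.43 with PBS, 9.88, 9.96, 10.01 and 9.97 with control siRNA and 8.60, 7.94, 7.90 and 7.48 with Rab5 siRNA. The control siRNA arrays were close to one another, and the Rab5 siRNA arrays were spread out below them. Csad went from 9.95 ± 0.0557 (SD, n = 4) to 7.98 ± 0.465 (SD, n = 4), with 25.5% of its signal kept (difference -1.97, SE 0.198, adjusted p = 1.48e-05). Cth, cystathionine gamma-lyase, the second step of transsulfuration, was the other large fall. With PBS Cth stood at 11.34 and 11.25, with control siRNA at 11.29, 11.10, 11.01 and 11.40 and with Rab5 siRNA at 9.42, 10.29, 9.82 and 10.10. It differed by -1.29 (SE 0.162, adjusted p = 7.99e-05) and kept 40.8% of its signal. Cbs, the first step of transsulfuration, fell by 0.46 (SE 0.110, adjusted p = 0.00806).

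Cdo1, the dioxygenase that turns cysteine into the substrate of Csad, differed by -0.35 (95% interval -0.62 to -0.08) and did not pass (adjusted p = 0.0570). Without Rab5 siRNA replicate 1 the difference was -0.47 and passed (adjusted p = 0.00620). Bhmt and Bhmt2 remethylate homocysteine with betaine and with S-methylmethionine. Bhmt differed by -0.09 (95% interval -0.53 to 0.36) and Bhmt2 by -0.02 (-0.23 to 0.18). Replicate 1 of the Rab5 siRNA group read 12.08 for Bhmt where the other 3 read 12.98 to 13.10, and without it the difference was 0.15.

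Dmgdh and Bhmt2 lie head to head on chromosome 13, and their promoter windows in RefSeq share 233 of 300 bases. Both are shown because the messengers read from this shared stretch had different values: Dmgdh fell by 0.60 and Bhmt2 differed by -0.02. The distance between them within an array changed by -0.57, with no overlap of the siRNA groups; the pair was singled out after its values were seen, so no test is given. The windows are chr13:93674186-93674485 on the plus strand and chr13:93674253-93674552 on the minus strand (GRCm38.p6), each written 5′ to 3′ for its own gene, and capitals mark the shared bases.
Dmgdh: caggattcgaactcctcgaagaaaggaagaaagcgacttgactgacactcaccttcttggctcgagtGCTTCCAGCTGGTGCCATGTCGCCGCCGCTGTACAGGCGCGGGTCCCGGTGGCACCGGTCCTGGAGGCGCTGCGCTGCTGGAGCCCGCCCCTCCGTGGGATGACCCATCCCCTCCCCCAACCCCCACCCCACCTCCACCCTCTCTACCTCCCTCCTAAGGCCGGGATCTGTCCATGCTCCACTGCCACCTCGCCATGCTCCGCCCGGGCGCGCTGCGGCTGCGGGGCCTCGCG
Bhmt2: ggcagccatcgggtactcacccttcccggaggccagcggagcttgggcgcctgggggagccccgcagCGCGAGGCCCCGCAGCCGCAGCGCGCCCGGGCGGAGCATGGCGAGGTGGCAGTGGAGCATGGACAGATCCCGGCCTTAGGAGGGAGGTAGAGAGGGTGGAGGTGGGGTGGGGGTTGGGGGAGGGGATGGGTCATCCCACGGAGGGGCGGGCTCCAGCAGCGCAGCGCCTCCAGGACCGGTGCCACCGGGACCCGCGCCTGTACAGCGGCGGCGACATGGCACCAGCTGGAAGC

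The transaminases, which move amino groups between amino acids and keto acids, differed in their calls. Got1, the cytosolic aspartate aminotransferase, fell, and Got2, its mitochondrial counterpart, did not pass the test. In the PBS arrays Got1 was measured at 9.36 and 9.35, in the control siRNA arrays at 9.69, 8.72, 9.13 and 9.38 and in the Rab5 siRNA arrays at 7.27, 7.62, 7.79 and 7.75. The control siRNA arrays were scattered, but each was above every Rab5 siRNA array. Got1 went from 9.23 ± 0.408 (SD, n = 4) to 7.61 ± 0.235 (SD, n = 4), a difference of -1.62 (SE 0.178, adjusted p = 2.88e-05) that left 32.5%. Got2 differed by -0.25 (95% interval -0.45 to -0.05, adjusted p = 0.0703), with its siRNA groups separate. The distance between Got1 and Got2 changed by -1.37 (exact two-sided permutation test of the siRNA labels, p = 0.0286, the smallest that 70 relabellings allow; adjusted over 3 paralog pairs p = 0.0857), which did not pass. The exact test with labels exchanged only within same-numbered arrays, 16 ways, gave p = 0.125, the smallest it can give. A single pair at its smallest p cannot pass the adjustment over 3 pairs, nor can 0.125 pass. Neither test can decide whether this pair differs.

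Gpt, the cytosolic alanine aminotransferase, differed by -0.37 (95% interval -0.65 to -0.09, adjusted p = 0.0560), and with the replicate number as a block it passed (adjusted p = 0.0475). Its second probe set above the filter fell by 0.39 (adjusted p = 0.0215 over all probe sets). Gpt2, the mitochondrial form, differed by -0.07 (-0.30 to 0.17). The distance between the 2 changed by -0.30 (exact two-sided permutation test, p = 0.0857, adjusted p = 0.129), and that between Bhmt and Bhmt2 by -0.06 (p = 0.686), so neither pair was shown to differ or to act alike.

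The promoters of Got1 and Got2 are shown because their distance changed most among the paralog pairs, without passing the test. They are at chr19:43524556-43524855 and chr8:95888352-95888651 (GRCm38.p6, both minus strand, RefSeq). Capitals in Got2 mark the reverse complements of TATAAA at position -142 and of GTTAAT at position -206 from the start; none of the 8 letter strings searched is in the Got1 window.
Got1: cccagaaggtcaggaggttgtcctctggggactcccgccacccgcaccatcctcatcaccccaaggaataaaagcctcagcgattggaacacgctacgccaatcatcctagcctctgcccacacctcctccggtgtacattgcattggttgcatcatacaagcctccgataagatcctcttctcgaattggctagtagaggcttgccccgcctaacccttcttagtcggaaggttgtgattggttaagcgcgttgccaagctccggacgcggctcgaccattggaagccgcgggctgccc
Got2: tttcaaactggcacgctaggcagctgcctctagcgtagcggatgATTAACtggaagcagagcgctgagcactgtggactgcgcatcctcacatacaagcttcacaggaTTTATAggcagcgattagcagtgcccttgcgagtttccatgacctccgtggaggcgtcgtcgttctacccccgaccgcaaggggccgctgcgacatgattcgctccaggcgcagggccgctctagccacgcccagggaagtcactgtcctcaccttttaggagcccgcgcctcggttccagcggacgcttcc

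Both lysine enzymes fell. Aass, the bifunctional enzyme that opens lysine breakdown through saccharopine, was lower in each Rab5 siRNA array than in any other. Aass read 9.95 and 9.99 in the PBS livers, 9.96, 10.07, 9.62 and 9.90 in the control siRNA livers and 8.68, 9.05, 8.98 and 9.16 in the Rab5 siRNA livers. It differed by -0.92 (SE 0.124, adjusted p = 1.49e-04). Aldh7a1, the dehydrogenase that oxidizes the resulting semialdehyde, fell by 0.41 (SE 0.105, adjusted p = 0.0121).

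All 7 branched-chain enzymes fell, within a narrow range of -0.33 to -0.80. Bckdha, the E1 alpha subunit of the branched-chain keto acid dehydrogenase, fell most. The log2 values of Bckdha were 9.77 and 9.62 with PBS, 9.74, 9.49, 9.58 and 9.45 with control siRNA and 9.11, 8.75, 8.83 and 8.36 with Rab5 siRNA. Replicate 4 was the lowest of the Rab5 siRNA arrays, and none reached the control siRNA arrays. The difference was -0.80 (SE 0.141, adjusted p = 0.00104). Its partner subunit Bckdhb fell by 0.33 (SE 0.0918, adjusted p = 0.0182), a call lost without control siRNA replicate 4 (adjusted p = 0.0514) and without Rab5 siRNA replicate 2 (0.0608). In leucine breakdown Ivd, isovaleryl-CoA dehydrogenase, and both subunits of methylcrotonyl-CoA carboxylase, Mccc1 and Mccc2, each fell by 0.63 (SE 0.110, 0.101 and 0.0904). In valine breakdown Hibadh fell by 0.57 (SE 0.0895) and Aldh6a1 by 0.73 (SE 0.0994).

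Aldh5a1, succinic semialdehyde dehydrogenase, which finishes GABA breakdown, was the dimmest enzyme of the set and among the least scattered. With PBS Aldh5a1 stood at 7.75 and 7.46, with control siRNA at 7.28, 7.44, 7.41 and 7.41 and with Rab5 siRNA at 6.80, 6.74, 6.69 and 6.72. It went from 7.39 ± 0.0693 (SD, n = 4) to 6.74 ± 0.0455 (SD, n = 4), a difference of -0.65 (SE 0.0937, adjusted p = 2.33e-04).

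Several enzymes were read by more than 1 probe set, and for 6 (Uroc1, Cbs, Bhmt2, Gpt, Gpt2 and Hibadh) the one used is of a kind that can bind several related transcripts. The 41 genes had 72 probe sets, and 25 of the 31 not used above passed the filter. Of the 19 that belong to a gene that fell, 16 fell as well over all 45037 probe sets and all 19 were negative. Of the 6 that belong to a gene that did not pass, 1 fell, that of Gpt, and 3 of Gpt2 read 0.15 to 0.21. The share of all probe sets that fell in this fit was not computed, so these counts have no baseline beside them.

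RefSeq promoters were at hand for 36 of the 41 enzymes, 40 windows in all with 4 genes holding several, beside 32851 windows of the whole table. Of 8 letter strings searched on both strands, TATAAA was in 12.5% of the enzymes' windows and 13.6% of all, CACGTG in 5.0% and 7.15%, GTTAAT in 4 of the 40 and 7.10%, and TGTTTAC in 2.5% and 3.65%. TGACGTCA, CAAAGTCCA, TTATGTAA and TTGCGCAA were in none of the 40 windows and in 1.79%, 0.475%, 0.938% and 0.183% of all. The median GC content was 56.5% in the enzymes' windows and 52.7% in all. These are counts of letters in a short window and are no evidence for or against binding.

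The second comparison asks what the carrier with the control siRNA does by itself. Against PBS, none of the 41 enzymes was called in the control siRNA livers, nor was any of the 12855 genes (0% called down and 0% called up by limma; 554 genes had an unadjusted p under 0.05). Of the enzymes, 34 differed downwards and 7 upwards, with a median of -0.10, where 6730 of all genes differed downwards and 6125 upwards. In 9 enzymes the control siRNA arrays lay below both PBS arrays and in 0 above both. Over all 12855 genes these counts were 825 and 845. Gldc differed by -0.43 (unadjusted p = 0.00406, adjusted p = 0.829) and Kynu by -0.26 (unadjusted p = 0.0435), the only 2 enzymes under that mark. The cycling-cell markers differed upwards in 6 of 6 cases, with a median of 1.30. In 4 the control siRNA arrays lay above both PBS arrays, as in 845 of all genes, and 4 had an unadjusted p under 0.05. PBS had 2 arrays.

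In the third comparison Rab5 siRNA livers were set against PBS; it shares its Rab5 siRNA arrays with the main one. Of the 41 enzymes 34 fell and none rose, where 7.59% of all genes fell and 9.53% rose. All 41 had their Rab5 siRNA arrays below both PBS arrays, as did 18% of all genes. The median difference was -0.78, and 12 enzymes fell by at least 1 log2 unit, as did 1.53% of all genes. Hal differed by -2.13, Csad by -1.76, Got1 by -1.74 and Hpd by -1.63. Gldc (-0.47, adjusted p = 0.0178) and Cdo1 (-0.59, adjusted p = 0.0163) passed here and not against the control siRNA, and Aldh7a1 (-0.37, adjusted p = 0.0696) the reverse. Fewer enzymes fell when either PBS array was left out. No count is given for those fits, since the remaining PBS array was assumed to vary like the other groups.

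**Figure D4:**
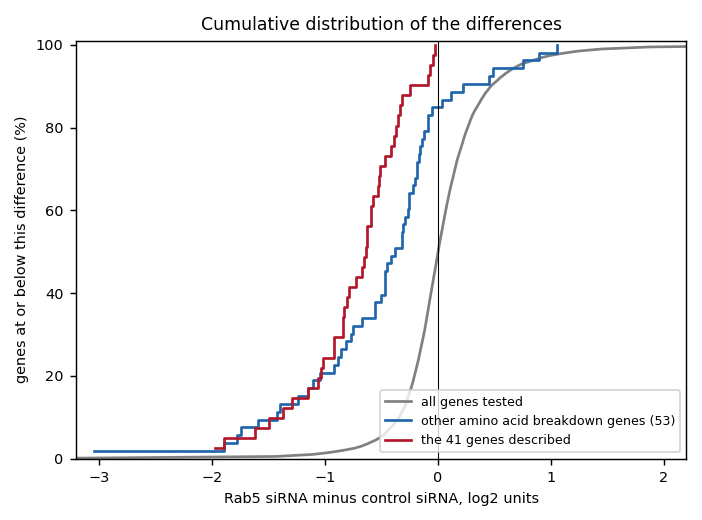
Cumulative share of genes by their log2 difference, Rab5 siRNA minus control siRNA, for all 12855 genes tested, the 53 other breakdown genes and the 41 enzymes. The medians are 0.00, -0.38 and -0.63 in that order, and the curves cross in the lower tail, where the lowest values are -3.64, -3.04 and -1.97.

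A second list held 64 further genes of the same pathways, of which 53 were tested. Of these 29 fell (54.7%, against 9.51% of all genes), 5 rose (9.43%, against 13.8%) and 19 did not pass, with a median of -0.38. The 6 largest falls were in Oat, ornithine aminotransferase, at -3.04 (SE 0.145), Prodh, proline dehydrogenase, at -1.89 (SE 0.145), Ppm1k, the phosphatase that activates the branched-chain dehydrogenase, at -1.78 (SE 0.135), Mat1a, which makes S-adenosylmethionine, at -1.74 (SE 0.127), Abat, GABA transaminase, at -1.59 (SE 0.123), and Gnmt, glycine N-methyltransferase, at -1.43 (SE 0.143). The Ppm1k protein acts on the complex that holds Bckdha, which fell too.

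The 5 that rose, a share no higher than that of all genes, are listed for completeness. Ethe1, the persulfide dioxygenase of hydrogen sulfide disposal, rose by 1.05 (SE 0.138), Asrgl1, an asparaginase, by 0.89 (SE 0.113), Mtr, methionine synthase, by 0.76, Maoa, monoamine oxidase A, by 0.49 and Agxt2, a mitochondrial aminotransferase, by 0.45. Mtr was below the filter in control siRNA livers, at 3.87, and passed it only through the Rab5 siRNA arrays, where it was high. The Agxt2 call was lost without control siRNA replicate 1 or 3 or Rab5 siRNA replicate 2, 3 or 4 (adjusted p 0.0501 to 0.0567). Glud1, glutamate dehydrogenase, which releases the amino nitrogen that transaminases collect, differed by -0.05 (95% interval -0.24 to 0.15, adjusted p = 0.750).

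**Figure D5:**
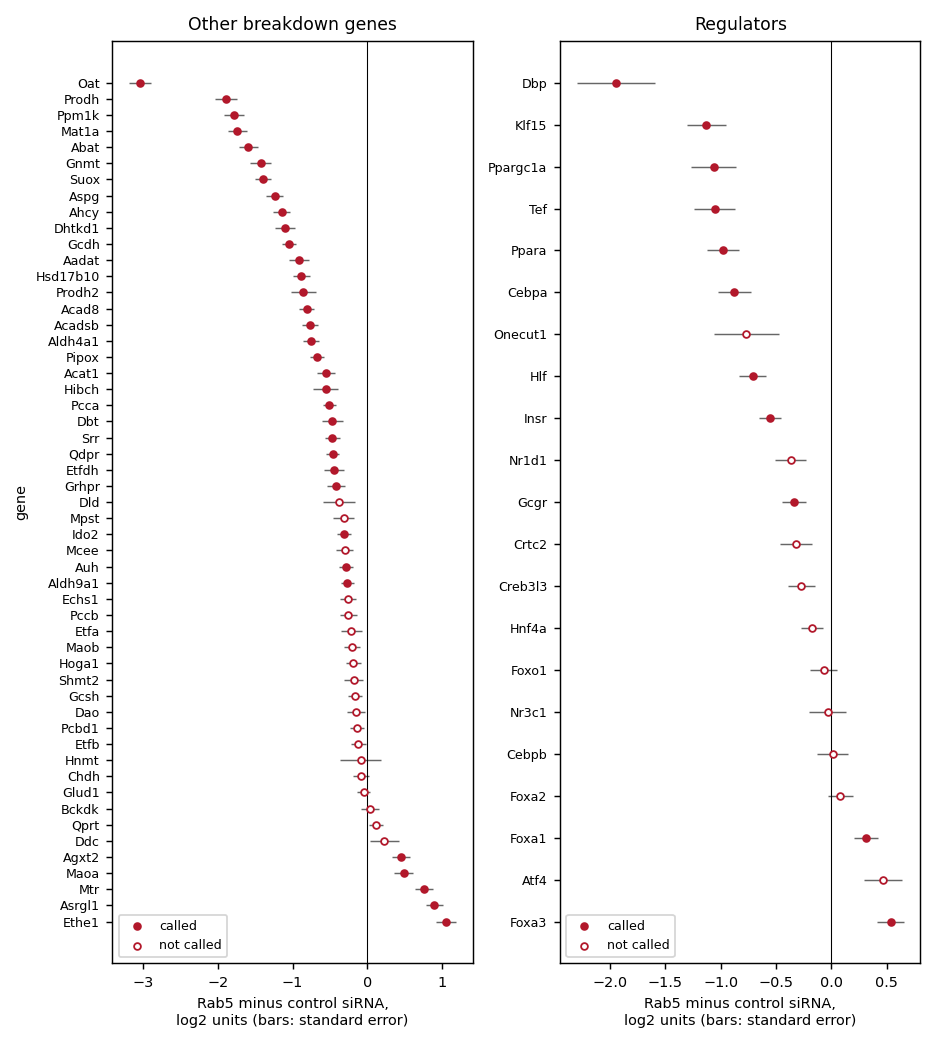
Difference in log2 signal, Rab5 siRNA minus control siRNA, with a bar of 1 moderated standard error. All 53 other breakdown genes tested and all 21 regulators of amino acid breakdown tested are shown. Oat lies lowest at -3.04 and Ethe1 highest at 1.05.

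Receptors and transcription factors known to act on these enzymes were lower more often than higher. Of 21 tested 9 fell (42.9%, against 9.51% of all genes), 2 rose (9.52%, against 13.8%) and 10 did not pass, with a median of -0.34. Klf15, a factor that drives amino acid breakdown in fasting, fell by 1.13 (SE 0.178, adjusted p = 4.60e-04), Ppargc1a, a coactivator of the fasting response, by 1.06 (SE 0.205), Ppara by 0.98 and Cebpa by 0.88. Gcgr, the glucagon receptor, fell by 0.34 (adjusted p = 0.0366), which was lost without control siRNA replicate 1 or 3 and without Rab5 siRNA replicate 2, 3 or 4 (adjusted p 0.0546 to 0.101), and Insr, the insulin receptor, by 0.55. Nr3c1, the glucocorticoid receptor, differed by -0.03 (adjusted p = 0.915) and Hnf4a by -0.17 (adjusted p = 0.253).

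The clock-output factors Dbp, Tef and Hlf fell by 1.95, 1.05 and 0.71. Dbp and Tef differed upwards by 1.70 and 0.58 in control siRNA against PBS livers, and neither passed the test, as no gene did there. In Rab5 siRNA livers they differed from PBS by -0.25 and -0.47 (adjusted p = 0.767 and 0.188). The time of day of collection is not given in the sources used here. The rises were in Foxa3, by 0.54 (adjusted p = 0.00628), and Foxa1, by 0.32 (adjusted p = 0.0490). The Foxa1 call was lost when any 1 siRNA array was left out (adjusted p 0.0570 to 0.112). Against PBS none of the 21 regulators rose and 7 fell, where 9.53% of all genes rose and 7.59% fell. Only 1 fell there by at least 1 log2 unit, against 4 in the main comparison (1.53% and 1.33% of all genes).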

How the data were processed

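Whole-liver RNA was measured on 10 arrays of 1 colour. The deposited values are log2 signals made by the authors with RMA in Affymetrix Expression Console and Partek 6.6, per the submitters' processing notes. Of 45101 probe sets, 34945 name 1 gene, 932 several and 9160 none, and 64 are controls; names come from the platform annotation. A probe set was kept above 4.33, the table's median, in at least 2 arrays, and the kept set with the highest mean stood for its gene. Means, moderated standard errors and tests came from limma 3.58.1 in R 4.3.3, fitted on all 10 arrays, with Benjamini-Hochberg adjustment over 12855 genes and calls at an adjusted p under 0.05. The scripts were tested on simulated data. The number of arrays limits the precision.

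Deviations of same-numbered siRNA arrays, by their titles, correlated at 0.391, 0.149, 0.186 and 0.312. The highest correlations with another number were 0.0509, 0.183, 0.0532 and 0.199, so control siRNA array 2 matched Rab5 siRNA array 4 better than its own number. The pairing is not established, and the numbers served as pairs in an alternative fit with a replicate block. The enzymes and lists were chosen with earlier results of these data known. Values in every array are given for enzymes that fell by at least 1 log2 unit and for the largest change of the other pathways; Sardh was added after its value was seen, since it equals Aldh1l1 after rounding. Of the other breakdown genes the 6 largest falls, all rises and Glud1 are named, and of the regulators all called ones, Gcgr, Nr3c1, Klf15 and Hnf4a. The paralogs Got1 and Got2, Gpt and Gpt2, Bhmt and Bhmt2 were compared within arrays by an exact permutation test, and, added after the data were seen, with labels exchanged within same-numbered arrays; the neighbours Hal and Amdhd1, Dmgdh and Bhmt2 are described without a test. Protein sequences were not used here.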

Additional observations from a re-analysis of the deposited data

Results flagged for a closer look

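Of 90 sets of 4 siRNA arrays examined, 5 had 1 array far from the other 3, where chance gives about 1 in 20. Hpd read 12.86 in control siRNA replicate 1 and at most 12.63 in the others, and without that array it differed by -1.44. Aldh5a1 read 7.28 in the same array and at least 7.41 in the others, and without it the difference was -0.68. Afmid read 6.92 in Rab5 siRNA replicate 4, where the next was 7.64, and without it the difference was -0.84 (adjusted p = 0.00148). Rab5 siRNA replicate 1 gave both remaining cases: Bhmt at 12.08, with the next at 12.98, and Bhmt2 at 9.94, with the next at 10.19. Without that array Bhmt differed by 0.15 (adjusted p = 0.445) and Bhmt2 by 0.04 (adjusted p = 0.772).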

How the results depend on the processing

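All 33 enzymes that fell kept their sign under each of 20 alternative settings, and 29 of them passed the test in each. The exceptions were Ftcd, Cbs, Aldh7a1 and Bckdhb, all lost when both siRNA arrays numbered 2 were left out (adjusted p = 0.0781, 0.0534, 0.0591 and 0.126), Ftcd and Bckdhb also without single arrays as given above. Cdo1, Got2, Gpt and Kmo passed in some settings, and Bhmt, Bhmt2, Gldc and Gpt2 in none. Leaving out 1 siRNA array gave 32 to 34 enzymes down and 0 up against the control siRNA. For the regulators it gave 1 to 2 up, and Foxa1 was not among them. Leaving out 1 control siRNA array gave 0 enzymes for control siRNA against PBS. With 1 of the 2 PBS arrays left out, fewer enzymes fell against PBS, as given above. With the replicate block, 34 enzymes fell and 0 rose, and Gpt was the only enzyme whose call changed. One regulator fewer was called up, 1 in place of 2, with no filter, with quantile normalization, and when both siRNA arrays numbered 1, or both numbered 2, were left out; the one lost was Foxa1. With both numbered 2 left out, 3 other breakdown genes rose and 29 enzymes fell; fewer samples were fitted there. Asking for at least 1 log2 unit left 10 enzymes down, 11 other breakdown genes down and 1 up, 4 regulators down and 0 up, 4 periportal genes down and 1 up, and 5 pericentral genes down and 0 up. At that size 1.33% of all genes tested were down and 2.53% up. The 2 PBS arrays and the small number of siRNA arrays limit what could be detected, and signal near the filter limits Mtr and Rab5b.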

Other observations

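Genes known from 1 side of the liver lobule were also examined. Of 15 periportal genes tested that are not among the 41 enzymes, 8 fell (53.3%) and 2 rose (13.3%), with a median of -0.43. G6pc, glucose-6-phosphatase, fell by 2.49 and Etnppl, a phospholyase, by 2.02, while Cdh1, E-cadherin, rose by 1.02 and Hsd17b13, a lipid droplet protein, by 0.79. Of 18 pericentral genes 9 fell (50%) and 3 rose (16.7%), with a median of -0.39. Of all genes tested 9.51% fell and 13.8% rose, so the shares that rose were near that of all genes. Oat fell by 3.04, the glutamate transporter Slc1a2 by 2.36 and Glul, glutamine synthetase, by 1.16, while Slc13a3, a dicarboxylate transporter, rose by 0.77, Ahr by 0.69 and Lect2 by 0.59. These genes were named after their values were seen. Oat is on the pericentral list and on that of other breakdown genes. No test compared the lists.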
